A study of Mus musculus with 3 samples.

Results

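The solute carrier genes of mouse neural retina were described from 3 arrays of the Rp1 knockout. A gene was a member where a probe set was annotated to exactly 1 symbol made of Slc and a number, and Slc1a3, Slc4a1, Slc6a9 and Slc24a1 were left out. This gave 149 of the 8251 genes with a probe set of their own, from 40 Slc families, measured by 183 of 12422 probe sets. This rule reads gene symbols and no signal. All 3 samples formed 1 group: Rp1-/- mice in a mixed background of 129/SvEv and C57BL/6, at P21 (postnatal day 21), with retinas taken between 1 and 2 pm. Each sample was RNA from the pooled neural retinas of 3 to 4 mice, hybridised to 1 one-colour Affymetrix U74Av2 array. A group without the knockout was not analysed here. No contrast was therefore made and no p-value computed, and the replicate numbers 1, 2 and 3 only name the pools.

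Solute carriers are membrane proteins that move sugars, amino acids, transmitters, ions, nucleotides and metals across the plasma membrane or the membranes of organelles. They work as facilitated carriers, as cotransporters driven by sodium, proton or chloride gradients, or as exchangers. In retina they bring glucose and taurine across the blood-retina barriers, load synaptic vesicles, clear glutamate, GABA and glycine from synapses, set the chloride gradient that GABA and glycine act on, and carry lactate between Müller glia, photoreceptors and the pigment epithelium.

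The values are scaled linear intensities. A signal counted as above background when it exceeded the 95th percentile of the same array's 19 control probe sets, which target transcripts of bacteria and yeast, a limit of 160.3, 80.7 and 107 in replicates 1, 2 and 3. The median signal of all probe sets, 296, 216 and 249.7 as deposited, was also highest in replicate 1. Of the retinal marker lists, 9 of 9 measured rod genes, 8 of 8 of Müller glia and 8 of 9 of amacrine and horizontal cells were above background on all 3 arrays. So were 8 of 8 lens genes, 5 of 8 genes of pigmented cells, 5 of 8 of stroma and 3 of 10 of skeletal muscle. No probe set carried the symbol Rp1, so the deletion could not be followed. Since each probe set has its own response, a gene's level is compared between pools and never with that of another gene.

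Most solute carrier genes gave a signal in every pool. Of the 149 members, 91 (61.1%) exceeded the limit on each of the 3 arrays, as 60.7% of all genes did, so the share was near that of the array as a whole. A further 33 were above it on 1 or 2 arrays (23.6% of all genes were) and 25 on no array (15.7% of all genes). By array, 103 members were above the limit in replicate 1, 114 in replicate 2 and 106 in replicate 3. Of all 12422 probe sets, 7921, 8624 and 8442 were, also fewest in replicate 1 and most in replicate 2. Among roles with 3 or more genes, the shares ran from 8 of 9 for carriers of vitamins, choline and peptides to 4 of 11 for the cationic and heteromeric amino acid carriers and 1 of 3 for the phosphate carriers. The 25 that were above background nowhere included Slc12a1 and Slc12a3 of the renal tubule, the bile acid carriers Slc10a1 and Slc10a2, the renal anion transporter Slc22a6 and the intestinal glucose cotransporter Slc5a1. Other carriers known from kidney, Slc22a2, Slc22a12 and Slc17a1, were above it in every pool by the probe set used.

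**Figure D1:**
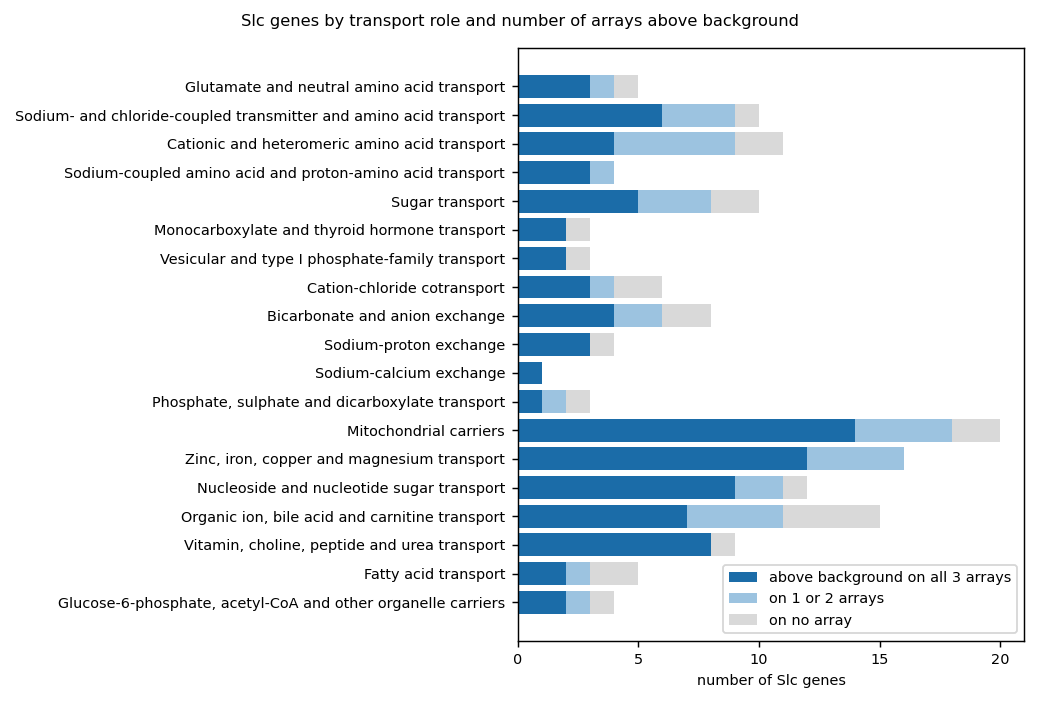
Horizontal bars count the 149 Slc genes in 19 transport roles (x axis, number of genes), split by whether a gene was above background on all 3 arrays, on 1 or 2, or on none. Mitochondrial carriers form the longest bar, with 14 of 20 genes above background on all 3 arrays, and 12 of 16 metal transporters were so too.

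For 123 of the 149 members a promoter was listed in RefSeq (build GRCm38.p6), as 172 windows of 300 bases from 250 before to 50 after a gene's start. The GC box GGGCGG, which binds Sp1-type factors, was searched on both strands and lay in 62.2% of the members' windows and in 35.7% of all 32851 windows of the table. Among genes on the array that were above background on all 3 arrays the share was 63.3%, and among other genes on the array 46.6%. Members split in the same direction, with 69.5% of 105 windows for those above background on all 3 arrays and 50.7% of 67 windows for the others. A TATAAA box on either strand lay in 7.56% of the members' windows, in 13.6% of all windows and in 7.76% of those of array genes above background. TAATCC, the core that CRX-type homeodomain factors of photoreceptors bind, lay in 4.65%, 7.06% and 5.49%. Among members above background on all 3 arrays, TATAAA lay in 5.71% of windows, against 7.76%, and TAATCC in 2.86% (3 of 105), against 5.49%. For other members the shares were 10.4% and 7.46%, against 13.7% and 5.88% of other array genes. The E-box CACGTG was found in 12.8% of members' windows and 7.15% of all windows. For members above background on all 3 arrays it was 9.52%, against 10.6% of array genes above background, and for other members 17.9% against 7.73%. The NRF1 motif lay in 5.23% of members' windows, in 4.6% of all windows and in 10.8% of those of array genes above background, on either strand. For members above background on all 3 arrays it was 6.67%, and for other members 2.99% against 4.42% of other array genes. A gene can have several windows, and a match to letters is not a binding site.

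To show such windows beside the data, those of the member with the narrowest range between pools (Slc35d1), of the vesicular GABA and glycine transporter (Slc32a1), and of the pair of carriers with the widest ranges that had an entry (Slc46a1 and Slc16a8) are given 5′ to 3′, with GC boxes on either strand in capitals. They lie at chr4:103215127-103215426 on the minus strand, chr2:158610508-158610807 on the plus strand, chr11:78465451-78465750 on the plus strand and chr15:79254699-79254998 on the minus strand. Slc35d1 held 2 GC boxes and Slc46a1 held 1, while these letters were not in the windows of Slc32a1 and Slc16a8. No TATAAA was in any of the 4 windows.
Slc35d1: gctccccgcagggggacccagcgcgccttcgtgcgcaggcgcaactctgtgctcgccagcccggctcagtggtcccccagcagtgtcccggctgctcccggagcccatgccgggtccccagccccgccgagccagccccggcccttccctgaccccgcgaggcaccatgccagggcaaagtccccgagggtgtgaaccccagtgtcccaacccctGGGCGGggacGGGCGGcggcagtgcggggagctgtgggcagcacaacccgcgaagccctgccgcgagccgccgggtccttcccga
Slc32a1: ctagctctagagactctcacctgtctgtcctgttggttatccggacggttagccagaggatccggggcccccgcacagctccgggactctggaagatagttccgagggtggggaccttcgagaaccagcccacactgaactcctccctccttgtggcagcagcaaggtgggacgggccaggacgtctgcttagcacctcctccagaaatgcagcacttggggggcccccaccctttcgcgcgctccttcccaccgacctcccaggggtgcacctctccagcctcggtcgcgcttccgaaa
Slc46a1: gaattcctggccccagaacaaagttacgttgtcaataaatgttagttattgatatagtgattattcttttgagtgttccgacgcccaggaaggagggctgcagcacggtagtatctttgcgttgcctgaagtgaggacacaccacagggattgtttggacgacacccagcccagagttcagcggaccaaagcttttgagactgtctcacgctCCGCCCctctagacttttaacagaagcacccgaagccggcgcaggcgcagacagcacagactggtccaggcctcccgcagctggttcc
Slc16a8: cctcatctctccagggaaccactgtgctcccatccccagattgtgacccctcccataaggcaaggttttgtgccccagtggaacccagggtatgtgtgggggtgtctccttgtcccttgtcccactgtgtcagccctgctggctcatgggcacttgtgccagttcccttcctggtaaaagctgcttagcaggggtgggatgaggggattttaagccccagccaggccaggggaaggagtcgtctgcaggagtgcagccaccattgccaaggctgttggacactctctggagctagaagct

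Signals below are given for replicates 1, 2 and 3 in that order, followed by the mean ± SD over the pools (n = 3) on the linear scale. The range is log2 of the highest over the lowest signal of a gene. In bulk RNA, fewer cells of a type and less RNA per cell cannot be told apart.

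Glutamate and neutral amino acid carriers of the Slc1 family clear glutamate from synapses and exchange small neutral amino acids. Of 5 measured, 3 were above background on all 3 arrays. Slc1a1, the neuronal glutamate transporter, gave 167, 484 and 374 (342 ± 161), with replicate 1 lowest. A second Slc1a1 probe set gave 68.5, 128 and 79.2 and passed the limit in replicate 2 alone. Slc1a2, a glutamate transporter of glia that in retina is also found in cones and bipolar cells, gave 168, 143 and 138 (150.1 ± 16) and lay just above the limit in replicate 1. The exchanger of alanine, serine and cysteine Slc1a4 was among the steadiest members, at 710.3, 696 and 778 (728 ± 43.5). Slc1a5, which carries glutamine, gave 136, 83.5 and 31.5 and passed the limit in replicate 2 alone, the array with the lowest limit. Slc1a6, a glutamate transporter known from cerebellar Purkinje cells, was above background on no array.

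The Slc6 family couples uptake of transmitters, osmolytes and amino acids to sodium and chloride, and 6 of its 10 measured members were above background on all 3 arrays. Slc6a6 imports taurine, an amino acid abundant in photoreceptors, and its loss leads to retinal degeneration in mice. Its signals were 9725, 11131 and 9659 (10172 ± 832), a log2 range of 0.20, so the 3 pools lay close together. Another probe set of Slc6a6 gave 1316, 694 and 804 and was highest in replicate 1. Slc6a8, the creatine transporter, gave 248, 573 and 458 (426 ± 165) and had its lowest signal in replicate 1. The other Slc6a8 probe set was below background on all 3 arrays. Slc6a13, a GABA and taurine transporter, gave 811, 1073 and 1302 (1062 ± 245), lowest in replicate 1 and highest in replicate 3.

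The monoamine transporters of this family looked different from each other. Slc6a2 takes up noradrenaline and gave 891, 227 and 187 (435 ± 396), so that replicate 1 was 4.78-fold above replicate 3. A further Slc6a2 probe set, at 431, 71.1 and 127, was also highest in replicate 1, and was below background in replicate 2. Slc6a4, the serotonin transporter, was above background in replicate 1 alone, at 328 (4.07-fold above the limit of replicate 2), 27.9 and 29.2. Its other probe set gave 399.7, 110.2 and 271, above the limit in every pool, again with replicate 1 highest. Slc6a3, the dopamine transporter, was above background on no array.

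Heteromeric amino acid carriers pair a heavy chain of the Slc3 family with a light chain of the Slc7 family. The heavy chain Slc3a2 gave 1781, 3043 and 3636 (2820.1 ± 948) and its large neutral amino acid partner Slc7a5 gave 823, 1117 and 1284 (1075 ± 234). Both had their lowest signal in replicate 1 and their highest in replicate 3, although with arrays scaled to a common median Slc7a5 was highest in replicate 2. Slc7a11, the cystine and glutamate exchanger that supplies cysteine for glutathione, gave 243, 8.31 and 102. It was above background in replicate 1 alone, 3.01-fold above the limit of replicate 2. Of the 11 members of both families, 4 were above background on all 3 arrays, 5 on 1 or 2 and 2 on none.

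Among 4 sodium-coupled amino acid carriers of the Slc38 family, Slc38a2, a carrier of small neutral amino acids that cells induce when amino acids are short, gave 854, 812 and 791 (819 ± 32). Its range of 0.11 was the second narrowest of all members above background. The 3 other probe sets of Slc38a2 were below background on all arrays. Slc38a5 and Slc38a10 were above background on all 3 arrays too, but a second Slc38a10 probe set was below it on all of them.

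Glucose fuels the aerobic glycolysis of photoreceptors, and 5 of 10 sugar carriers and their relatives were above background on all 3 arrays. Slc2a1, the facilitative glucose transporter of the blood-retina barriers, gave 1237, 1905 and 1517 (1553 ± 335), lowest in replicate 1. Slc2a3, the neuronal glucose transporter, gave 434, 380.0 and 479 (431 ± 49.7) at one probe set and 258, 440.4 and 377 at another, with replicate 1 lowest at the second. At the first, replicate 2 was lowest as scaled here, and replicate 1 with the other scalings. The insulin-responsive transporter Slc2a4 was above background in replicate 1 alone, at 398 (4.93-fold above the limit of replicate 2), 49.7 and 40.8. Its other probe set gave 176, 29.8 and 40.9, again above background in replicate 1 alone. Slc2a5, the fructose transporter, which in brain is a microglial gene, gave 548, 20.03 and 189, below background in replicate 2.

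Monocarboxylate carriers move lactate and pyruvate. Slc16a1, of Müller glia, photoreceptors and the apical pigment epithelium, gave 296, 258 and 182 (246 ± 58.3), lowest in replicate 3. Slc16a7, the high-affinity form, gave 38.6, 2.70 and 32.9 and was above background on no array. Slc16a8 is known as the lactate exporter of the basolateral pigment epithelium and gave 954, 371 and 240.4 (522 ± 380.0), with replicate 1 3.97-fold above replicate 3. The 8 measured genes of the pigmented cell list summed to 2724, 13885 and 9012, with 5 of 8 above background on all 3 arrays. Of these 5, 3 were lowest in replicate 1 and 2 in replicate 3, with Rgr nearly equal in both (405.1 and 405.6). The other 3, Tyrp1 (63.2, 1434 and 997), Rdh5 (56.7, 587 and 316) and Tyr (84.1, 177 and 170), were below background in replicate 1 alone and lowest there. Dct gave 765, 5724 and 3742 and Pmel 454, 4105 and 2609.5, lowest in replicate 1, while Oca2 gave 288, 383 and 238 and Ttr 609, 891 and 533, lowest in replicate 3. The part of pigmented cells in the Slc16a8 signal was not tested.

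Vesicular carriers load transmitter into synaptic vesicles. Slc32a1, the vesicular GABA and glycine transporter of amacrine and horizontal cells, gave 2772, 2952 and 2184 (2636 ± 401), and its lowest signal was in replicate 3. Slc18a3, the vesicular acetylcholine transporter of starburst amacrine cells, gave 46.2, 47.3 and 55.7 and was above background on no array. The renal phosphate-family member Slc17a1 was above background in every pool at the probe set used, and below it in replicate 1 at another. The vesicular glutamate transporters Slc17a6 and Slc17a7 had no probe set of their own and were not analysed here. The same holds for others, such as Slc1a7, Slc4a7, Slc6a11, Slc16a3, Slc18a2, Slc24a2, Slc38a3 and Slc40a1. In all, 32 of 44 carriers listed for their known roles in retina were measured. Of these 32, 25 (78.1%) were above background on all 3 arrays, beside 60.7% of all genes. This list was chosen with earlier results of these data known, and the difference was not tested.

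**Figure D2:**
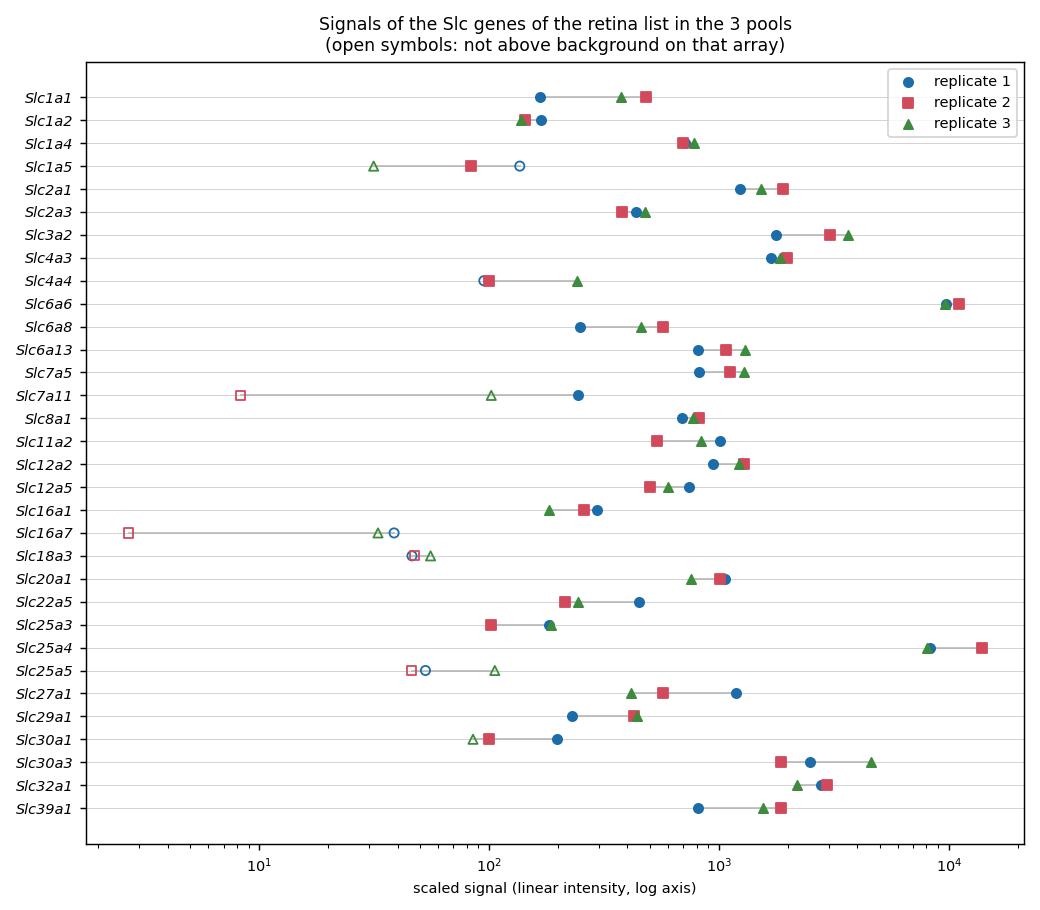
Scaled signals (log x axis) of the 32 measured Slc genes of the retina list in the 3 pools, 1 row per gene, with open symbols where a signal was not above background and a line from the lowest to the highest pool. The Slc6a6 pools overlap near 9659 to 11131, while Slc7a11 and Slc25a5 have pools below background.

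Chloride cotransporters set the direction of GABA and glycine responses. Slc12a2, which brings chloride in, gave 939, 1291 and 1224 (1151 ± 187), lowest in replicate 1. Slc12a5, the neuronal exporter of potassium and chloride, gave 742, 504 and 602 (616 ± 119.6), highest in replicate 1 and lowest in replicate 2. In this role 3 of 6 members were above background on all 3 arrays, with ranges between 0.46 and 0.56. With arrays scaled to a common median these ranges were 0.91 for Slc12a2, 0.35 for Slc12a4 and 0.11 for Slc12a5.

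Bicarbonate carriers regulate the pH of photoreceptors and Müller glia. Slc4a3, an anion exchanger whose loss impairs inner retinal function in mice, was among the steadiest members, at 1694, 1979 and 1841 (1838 ± 143). Slc4a4, the sodium bicarbonate cotransporter of Müller glia, gave 95, 100.2 and 241 and was below background in replicate 1. Slc4a8, a sodium-driven chloride bicarbonate exchanger of neurons, gave 265, 66.1 and 60.7. It was above background in replicate 1 alone, 3.29-fold above the limit of replicate 2. In all, 4 of 8 genes of the Slc4 and Slc26 families were above background on all 3 arrays, 1 of which, Slc4a1ap, encodes a partner protein and no carrier.

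The scaffold proteins Slc9a3r1 and Slc9a3r2 carry Slc symbols but tether exchangers and other membrane proteins to the cytoskeleton, and they make up 2 of the 4 members of the sodium-proton exchange role. Slc9a3r2 gave 870.5, 139 and 298 (436 ± 385), the widest range of all members above background on all 3 arrays, with replicate 1 6.25-fold above replicate 2. Slc8a1, the sodium-calcium exchanger of plasma membranes, was steady at 692, 817 and 770.0 (759.5 ± 63.4), but its 2 other probe sets were below background on all 3 arrays. Slc20a1, a sodium-coupled phosphate importer, gave 1066, 1016 and 756 (946 ± 166), lowest in replicate 3.

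Mitochondrial carriers of the Slc25 family were the most numerous role, with 14 of 20 above background on all 3 arrays and ranges from 0.16 to 1.16. Slc25a4, the exchanger of ADP and ATP of heart, muscle and brain, gave 8278, 13915 and 8072 (10088 ± 3316) and was highest in replicate 2. Slc25a11, which exchanges oxoglutarate for malate in the malate-aspartate shuttle, gave 1758, 1886 and 1689 (1778 ± 99.9), the third narrowest range of members above background. Slc25a3 imports phosphate for ATP synthesis, and its probe set gave 183, 102 and 187 (157 ± 47.7), lowest in replicate 2.

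Other mitochondrial members differed by pool. Slc25a53 was below background in replicate 1, at 82, 271 and 634, and replicate 3 was 3.96-fold above that limit. Slc25a45 gave 363, 136 and 81.5, below background in replicate 3, whose limit replicate 1 exceeded 3.39-fold. Slc25a5, the second exchanger of ADP and ATP, depended on the probe set. The one taken by the rule gave 52.9, 46.2 and 106, below background everywhere, while others gave 1325, 1647 and 2432 and 657, 376 and 293, above the limit in all 3 pools and in opposite orders. Slc25a4 and Slc25a5 are close relatives, and suffixes such as _f_at or _r_at mark probe sets chosen under relaxed rules or shared with related transcripts, so their signals are uncertain.

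Metal transporters exceeded background in every pool for 12 of 16 genes, and on at least 1 array for the other 4. Slc30a3 fills synaptic vesicles with zinc and gave 2501, 1872 and 4572 (2982 ± 1412), with replicate 3 highest. The other Slc30a3 probe set was below background on all 3 arrays. Slc30a1, which exports zinc from the cell, gave 198, 99.6 and 85.2, below background in replicate 3. Slc39a1, a zinc importer, gave 809, 1863 and 1553 (1408 ± 541), with replicate 1 lowest. At a second probe set it gave 81.6, 56 and 109, lowest in replicate 2 and above background in replicate 3 alone. Slc39a8, an importer of zinc and manganese, gave 501, 61.2 and 86.7. It was above background in replicate 1 alone, 6.21-fold above the limit of replicate 2. Slc11a2, the iron importer, gave 1008, 537 and 832 (793 ± 238) at one probe set and 312, 441 and 383 at another, in opposite orders. The copper importer Slc31a1 gave 677, 605 and 477 (586 ± 101) at the probe set used and 253, 648 and 835 at another, again in opposite orders.

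Nucleoside carriers and the Golgi carriers of nucleotide sugars exceeded background in every pool for 9 of 12 genes. Slc29a1, the equilibrative nucleoside transporter that carries adenosine, gave 229.6, 429 and 441 (367 ± 119), lowest in replicate 1. At a second Slc29a1 probe set the signals were 331, 97.8 and 194, highest in replicate 1. Slc35d1, which supplies UDP-sugars for chondroitin sulphate, had the narrowest range of members above background, at 278, 264 and 274 (272 ± 7.25). Slc35e4 was also steady, at 324, 283 and 293 (300.3 ± 21.3). Slc35a2, the UDP-galactose carrier, spread widely, at 305, 123 and 112 (180.0 ± 109), highest in replicate 1. Slc35e1 gave 347, 349 and 123 (273 ± 129.8) at the probe set used, lowest in replicate 3, and 198, 178 and 279 at another, highest there.

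Carriers of organic ions, bile acids and carnitine exceeded background in every pool for 7 of 15 genes. Of these 7, 5 were highest in replicate 1 under all 3 scalings tried. Among all genes above background, 42.6% were highest there as scaled here, and 23.8% when the arrays shared 1 median. The share that stayed highest there under every scaling was not computed. This is 1 of 19 roles, so the count of 5 is not shown to be particular to it. Slc22a5, the carnitine importer, gave 451, 214 and 244 (303 ± 129). Slc10a3, an orphan relative of the bile acid carriers, gave 508, 120.4 and 187 (272 ± 207), and Slc10a6, a carrier of sulphated steroids, gave 370.3, 157 and 166 (231 ± 121). Slc22a18, an imprinted gene of the organic cation family, gave 385, 127 and 263 (258 ± 129), lowest in replicate 2. In each of these 4 genes replicate 1 was the highest pool. Slc51a, a subunit of the basolateral bile acid exporter, gave 359, 110.3 and 41. It was below background in replicate 3, and replicate 1 was 3.35-fold above that limit.

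Of the carriers of vitamins, choline and peptides, 8 of 9 were above background on all 3 arrays. Slc46a1, the proton-coupled folate transporter, which in the eye is known from the pigment epithelium, gave 554, 155 and 124 (278 ± 239), with replicate 1 4.46-fold above replicate 3. Slc23a3, an orphan relative of the vitamin C transporters, gave 479.9, 208 and 371 (353 ± 137), and its second probe set gave 339, 613 and 602 in the opposite order. The vitamin C transporter Slc23a2 was above background in every pool.

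Fatty acid carriers gave 2 of 5 genes above background on all 3 arrays. Slc27a1, which brings long-chain fatty acids into cells and is known to restrain Rpe65 activity, gave 1185, 569.8 and 414 (723 ± 408), with replicate 1 2.86-fold above replicate 3. Slc27a3 was above background in replicate 1 alone, at 381 (4.73-fold above the limit of replicate 2), 38.5 and 48.6. Among carriers of organelles, Slc37a4, the glucose-6-phosphate transporter of the endoplasmic reticulum, gave 784, 777 and 485 (682 ± 171), lowest in replicate 3.

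Solute carrier genes spread between pools about as much as other genes. The median SD on the log2 scale was 0.33 over the 91 members above background and 0.36 over all 5006 genes above background, and the median range was 0.63 against 0.69. A range of 1 or more, a doubling between the lowest and the highest pool, was reached by 24 of 91 members (26.4%), near the 28.3% of all genes. The narrowest ranges depended on the scaling, and those of the 8 steadiest members, from 0.08 to 0.24, ran from 0.26 to 0.69 with arrays scaled to a common median. Ranges of 2 or more were seen for 4 members, Slc9a3r2, Slc6a2, Slc46a1 and Slc10a3, and for 3.36% of all genes. With a common median Slc46a1 (1.91) and Slc10a3 (1.63) fell below 2. Without replicate 1, 8 of the 102 members above background on the arrays kept had a range of 1 or more. Without replicate 2, 15 of 93 did. Among all genes the share fell too, from 28.3% to 6% without replicate 1 and 18% without replicate 2. Leaving out a pool can hardly widen a gene's range, so part of this fall is by construction.

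**Figure D3:**
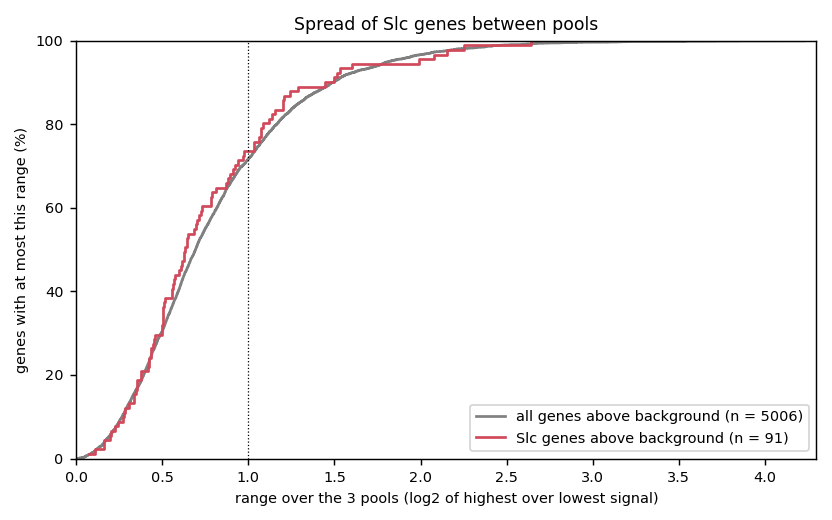
Cumulative share of genes (y axis, %) with at most a given range over the 3 pools (x axis, log2), for the 91 Slc genes and the 5006 genes above background on all 3 arrays; the dotted line marks a range of 1. The curves run close together, with medians of 0.63 and 0.69.

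Wide members were mostly highest in replicate 1, as wide genes were in general. Of the 12 with the widest ranges 9 had their highest signal there, under each of the 3 scalings, and of the 24 with a range of 1 or more 16 did (66.7%), against 58.5% of all genes with such a range. Over all 91 members, 41 were highest in replicate 1, 22 in replicate 2 and 28 in replicate 3, or 45.1%, 24.2% and 30.8%, against 42.6%, 33% and 24.4% of all genes. Scaled to a common median, these counts were 21, 46 and 24, beside 23.8%, 55.2% and 21% of all genes. After quantile normalization they were 34, 30 and 27, beside 39.2%, 34.3% and 26.5%, so which pool holds most of the highest signals depended on the scaling for members and for all genes. For 58 of the 91 members the highest pool was the same under the 3 scalings, and the same count over all genes was not made. Lowest signals fell in replicate 1 for 25 members, in replicate 2 for 35 and in replicate 3 for 31, or 27.5%, 38.5% and 34.1%, against 36%, 32.4% and 31.6% of all genes.

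**Figure D4:**
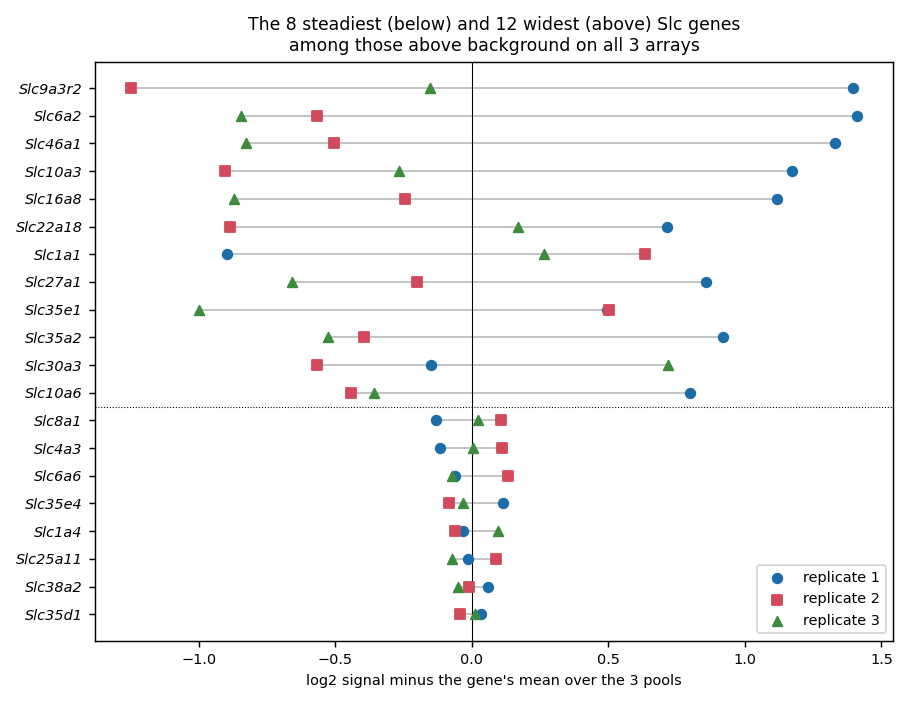
Log2 signal minus the gene's own mean (x axis) in each pool, for the 8 members with the narrowest and the 12 with the widest ranges among the 91 above background on all 3 arrays. Replicate 1 is the highest pool in 9 of the 12 wide members, and Slc1a1 is the wide member with replicate 1 lowest.

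Of the 33 members above background on 1 or 2 arrays, 10 (30.3%) had a highest signal at least 3-fold above the limit of an array where they were below it, against 27.5% of all such genes. These 10 were Slc2a4, Slc2a5, Slc4a8, Slc6a4, Slc7a11, Slc25a45, Slc25a53, Slc27a3, Slc39a8 and Slc51a. In 9 of them the highest signal was in replicate 1, against 75.6% of all genes that met the same criterion, and Slc25a53 was highest in replicate 3. The limits were 160.3, 80.7 and 107 in replicates 1, 2 and 3. A gene below the limit of replicate 1 alone thus needed a higher signal than one below that of replicate 2. The criterion itself therefore favoured replicate 1, and the count of 9 is not a result about these members. Slc2a5 reached 6.79-fold above the limit of replicate 2, the largest such ratio among members.

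Several probe sets of a gene did not always give the same picture. Of the 29 members with more than 1 probe set, 10 had all of them above background on all 3 arrays, 16 had some and 3 had none. With any probe set counted, 94 members in place of 91 were above background on all 3 arrays. In 5 members (Slc11a2, Slc23a3, Slc25a5, Slc31a1 and Slc35e1) a pair of probe sets above background on all 3 arrays ordered the pools in opposite ways. The direction of these members between pools thus depends on the probe set. How many of all genes have such a pair was not counted. Slc11a2, Slc23a3 and Slc31a1 are nevertheless among the 41 members counted as highest in replicate 1, and Slc35e1 is among the 12 widest, by the probe set used.

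**Figure D5:**
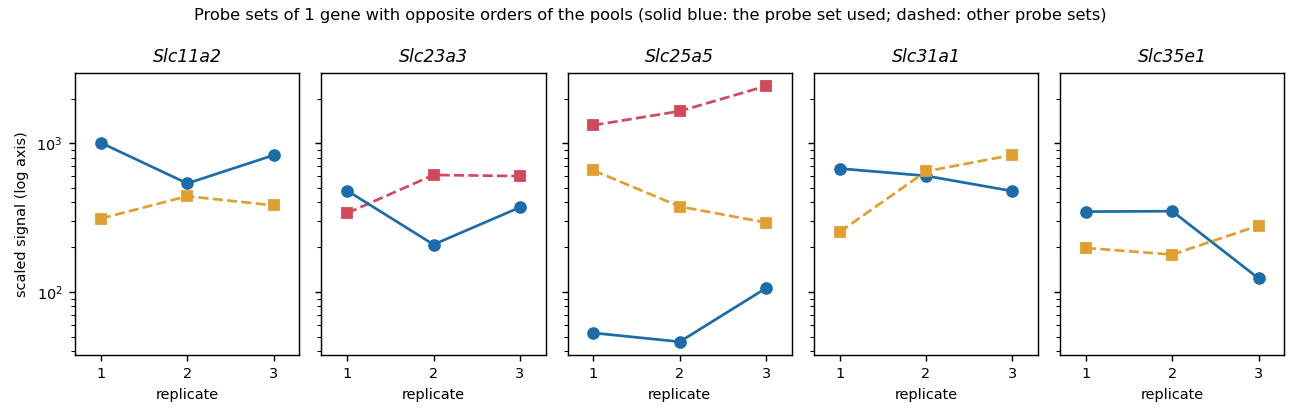
Scaled signals (log y axis) of every probe set of the 5 Slc genes in which 2 probe sets above background gave opposite orders of the pools, by replicate (x axis); solid blue lines are the probe sets used and dashed lines the others. In Slc25a5 the probe set used lies below the limits at 46.2 to 106, under the other 2 probe sets.

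Some member genes lie next to each other in the genome and are named for their position, with their signals given side by side and not compared. Slc22a5, Slc22a21 and Slc22a4 are neighbours on chromosome 11. Slc22a5 was above background in every pool, Slc22a21 gave 33, 70.2 and 120.5 and passed the limit in replicate 3 alone, and Slc22a4 gave 54.1, 9.72 and 33.4 and was below it throughout. Slc6a13 and Slc6a12 adjoin on chromosome 6, the latter at 44.4, 147 and 127, below background in replicate 1. Slc38a2 and Slc38a4 adjoin on chromosome 15, with Slc38a4 at 64.3, 186 and 211, also below background in replicate 1.

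Marker genes of retinal and other cell types also differed between the pools. Ordered by signal as scaled here, 12 members (13.2%) ran replicate 2, 3, 1 from highest to lowest, against 21.8% of all genes above background. These were Slc1a1, Slc2a1, Slc4a3, Slc6a8, Slc8a1, Slc12a2, Slc19a1, Slc25a28, Slc25a39, Slc30a4, Slc35b2 and Slc39a1. Each is placed by the probe set used, and other probe sets of Slc6a8, Slc8a1, Slc19a1, Slc30a4 and Slc39a1 ordered the pools differently. The 9 rod genes summed to 130647, 206642 and 147292 in replicates 1, 2 and 3, but gene by gene 4 were lowest in replicate 1 and 5 in replicate 3. The 5 cone genes summed to 6251, 10448 and 7553. Of the 4 above background on all 3 arrays, 3 were highest in replicate 2 and Gngt2 (675, 307 and 197) in replicate 1. The 8 genes of Müller glia summed to 22552, 35171 and 28224. Of these 8, 5 were lowest in replicate 1, 1 in replicate 2 and 2 in replicate 3. The 4 bipolar genes summed to 1402, 2784 and 2853, and the 9 of amacrine and horizontal cells to 14953.5, 17331 and 15210. Of these 9, 8 were above background on all 3 arrays, with 3 highest in replicate 1, 2 in replicate 2 and 3 in replicate 3. The 6 ganglion cell genes were highest in replicate 1 in sum, at 8132, 6715 and 5649. Gene by gene, 5 of the 6 were highest there and 1 in replicate 3. The 8 lens genes summed to 129765, 190000.0 and 134304, with 3 lowest in replicate 1, 1 in replicate 2 and 4 in replicate 3.

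The 8 stromal genes summed to 2664, 15898 and 10968, with 5 of 8 above background on all 3 arrays. Ptgds made up most of this sum in replicates 2 and 3, and without it the other 7 gave 1775, 3449 and 4232. Dcn (23.1, 602 and 648) and Acta2 (55.5, 722 and 734) were below background in replicate 1, while Col1a1 (556, 409 and 769), Col3a1 (189, 82.9 and 145) and Lum (193, 166 and 244) were lowest in replicate 2. The 4 measured red blood cell genes summed to 5422, 31627 and 8054, with 2 of 4 above background. The 7 endothelial genes were highest in replicate 1 in sum, at 3049, 1655 and 2069.8, with 4 of 7 above background. The 10 muscle genes gave 2836, 2413 and 3242, but without Pvalb, which is also a marker of amacrine cells, the other 9 gave 1582, 893 and 902, highest in replicate 1. Of the 10, 3 were above background on all 3 arrays, 2 of them highest in replicate 1 and 1 in replicate 3. Among the 9, Atp2a1 gave 566, 113 and 128, while Acta1 (56.7, 186 and 206) and Ckm (71.3, 299 and 266) were below background in replicate 1. No marker of these lists was at 0 on any array. The part of these cells in the carriers that were lowest or highest in replicate 1 was not tested.

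Genes that work with these carriers were mostly measured. Of 17 partner genes listed, 12 had a probe set of their own and 11 of the 12 were above background on all 3 arrays. Bsg, the chaperone that brings Slc16a1 to the membrane, gave 6079, 10902 and 6526 (7835 ± 2665), highest in replicate 2. Glul, which turns the glutamate taken up by Müller glia into glutamine, gave 3557, 2389.8 and 1378 (2442 ± 1091), and Gad1, which makes the GABA that Slc32a1 loads, gave 5445, 5053 and 4039 (4846 ± 726). Both were lowest in replicate 3. Of 35 listed carriers that have no Slc symbol, 14 had a probe set of their own and 9 were above background on all 3 arrays. Xpr1, a phosphate exporter, gave 2179, 2255 and 2388 (2274 ± 106). Mpc1, a subunit of the mitochondrial pyruvate carrier, was below background in every pool, at 110.4, 12.3 and 32.2.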

How the data were processed

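RNA of 3 pools of Rp1-/- neural retina was measured on Affymetrix U74Av2 arrays, 1 array a pool. The authors deposited linear intensities per probe set, already scaled so that the mean without the outer 2% at each end was nearly the same on all arrays. The software and its settings are not given in the sources used here. Each array was set to the common trimmed mean. Values under an array's 5th percentile were raised to it before log2. The background limit was the 95th percentile of 19 bacterial and yeast control probe sets. Genes were named through the platform annotation (10833 of 12422 probe sets with 1 symbol, 396 with several, 1193 with none). Where a gene had several probe sets, one with the plain _at suffix was taken, then the highest mean.

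Values are given for measured genes of the retina list, the 12 widest and 8 steadiest ranges, genes at least 3-fold above a limit, genes whose probe sets gave opposite orders, and Slc37a4. Other members are named by count, or for their position after their values were seen. The members and lists were chosen with earlier results of these data known. With 1 group there was no test, and the number of arrays limits the precision. Each pool was a separate sample by its labels, and the spread holds pool and array differences together. The steps were checked on simulated data. Alternatives changed the scaling, the limit, the floor, the probe set, the range threshold and the pools kept. Python 3.11.15 with numpy 2.4.6, pandas 2.3.3 and matplotlib 3.10.9 was used.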

Additional observations from a re-analysis of the deposited data

How the results depend on the processing

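No paired analysis was possible because all samples form 1 group. With arrays scaled to a common median, the members highest in replicate 1 numbered 21 and those highest in replicate 2 numbered 46, and the median deviation of members in replicate 1 was -0.22 on the log2 scale in place of 0.14. That scaling moved the arrays by -0.22, 0.23 and 0.02 (log2). With the median control probe set as the limit, 49 of 130 members had a range of 1 or more, beside 43% of all genes. With 1 replicate left out such members numbered 8 to 21 (8 without replicate 1, 15 without replicate 2). The share of all genes with such a range fell then as well, partly by construction, since leaving out a pool can hardly widen a range. With 0.5 or 2 as the range threshold, the members that reached it numbered 62 and 4, by construction. The number above background on all 3 arrays ran from 80 to 130 over the limits and probe sets tried. Scaling could not change it from 91, since an array's limit moves with its signals. With 1 pool left out, 93 to 102 members were above background on the 2 arrays kept, which asks less of a gene. The median SD ran from 0.23 to 0.39 over all settings. Of 513 mean signals of the named genes recomputed, 503 stayed within 1 SD, as did 431 of 513 ranges. Most checks on means could hardly fail, so they say little about how firm the means are. The floor does not enter a linear mean, the deposited values were already nearly scaled, and many genes had 1 probe set. With the probe set unchanged, leaving out 1 of 3 pools moves a mean by less than 1 SD. Some checks could hardly change the ranges either, and 57 of 57 stayed with the values as deposited and 56 of 57 without the floor. Of the 82 ranges that moved, 32 did so without replicate 1. Leaving out the 3 members that are not carriers (chosen after seeing the data) left 88 above background and 22 with a range of 1 or more. Where signals lie near the limit, presence depends on the limit chosen. The causes were not tested.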
